A study of Mus musculus with 99 samples.

Results

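The genes described here encode the Polycomb Repressive Complex 2 (PRC2) subunits EED, SUZ12, EZH1, EZH2, JARID2, AEBP2, MTF2, PHF1, PHF19 and EPOP. They are 10 of the 55341 gene names counted, chosen by name as core and accessory subunit genes, and each was followed in RNA-seq and in ChIP-seq peak lists from mouse embryonic stem cells (ESCs). All 10 were detected in every RNA-seq group and passed the filter on low counts.

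PRC2 methylates lysine 27 of histone H3, and its trimethylated form, H3K27me3, marks repressed genes. EED, SUZ12 and either EZH1 or EZH2 form the core: EZH1 and EZH2 are the methyltransferases, SUZ12 is the scaffold, and EED binds H3K27me3 and stimulates the enzyme. Accessory subunits divide PRC2 into PRC2.1, with a Polycomb-like protein (MTF2, PHF1 or PHF19) that binds CpG-rich DNA and often EPOP, and PRC2.2, with JARID2 and AEBP2. PRC1, the partner complex, places a single ubiquitin on histone H2A (H2AK119ub1) through RING1A or RING1B, and JARID2 can bind that mark. Several PRC2 subunit genes have CpG-rich promoters and can themselves carry Polycomb proteins.

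The Parental line was a RING1A-/-; RING1B fl/fl ESC line with ROSA26::creERT2, in which 4-hydroxytamoxifen (OHT, 0.5 µM) deletes RING1B and the vehicle ethanol (EtOH) does not. Stable clones of it expressed tagged RING1B WT or RING1B I53S, a mutant without ubiquitin ligase activity, from a transgene under a constitutive promoter, so endogenous RING1B was still present with EtOH and RING1A was absent in all groups of these 3 lines. A separate Eed fl/fl line, also with ROSA26 creERT2, loses EED with OHT. The study lists 2 Eed fl/fl clones, and the titles do not say which gave each library. Each of these 4 lines gave 2 RNA-seq libraries with EtOH and 2 with OHT for 72 h, 16 in all, and the ChIP lists also included MTF2 KO derivatives of the 3 lines without RING1A. All lines were cultured with serum, LIF and 2 kinase inhibitors on gelatin. The labels do not say that replicate libraries came from separate cultures, so p-values measure the spread between these libraries, which may be technical.

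Total counts were 8140106 to 12743460 in the 12 libraries without RING1A, and 6957248 to 9443814 in the 4 Eed fl/fl libraries. All 6 ESC markers were detected in every library, and their summed normalised read count (CPM, scaled by TMM) ranged from 2536 to 5188. Rnf2, which encodes RING1B, was at 198.3 and 257.1 CPM in Parental EtOH and at 144.0 and 166.8 CPM with OHT (adjusted p = 0.0346). Reads over its whole length were counted, so transcripts lacking only the deleted exons and transgene transcripts were included. Ring1, the gene deleted in the RING1A-/- lines, ranged from 1.03 to 4.02 CPM there and from 4.57 to 8.22 CPM in Eed fl/fl.

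In Parental ESCs with EtOH, the subunit genes covered a wide range of transcript levels. On the scale of CPM per kb of exon, Jarid2 was at 93.0 ± 12 (mean ± SD, n = 2 here and for the levels that follow) and Mtf2 at 85.3 ± 0.707, and these neighbours overlapped. Eed followed at 68.1 ± 8.6 and Suz12 at 48.1 ± 1.29 CPM per kb. The methyltransferase genes were lower than the other core genes, with Ezh2 at 14.4 ± 1.63 and Ezh1 at 11.3 ± 2.69 CPM per kb. Epop, at 18.1 ± 5.85, overlapped Ezh2. The lowest levels were those of Aebp2 at 4.91 ± 0.216, Phf1 at 0.898 ± 0.317 and Phf19 at 0.431 ± 0.054 CPM per kb. Among the 3 Polycomb-like genes, Mtf2 was therefore the most abundant and Phf19 the least. In Eed fl/fl ESCs with EtOH, Mtf2 was at 80.8 ± 21.2, Eed at 55.9 ± 15.2, Jarid2 at 50.9 ± 17.7 and Suz12 at 17.7 ± 2.36 CPM per kb, and Phf19, at 1.46 ± 0.189, lay above Phf1, at 0.745 ± 0.402. The 2 sets of libraries were scaled separately, so these orders are not compared by a test. With EtOH, summed markers of primitive endoderm, trophoblast and fibroblasts were higher in Eed fl/fl than in Parental ESCs (values below). Their part in these levels was not tested. Of the 3486 exon bases of Phf1, 1526 overlap Cuta or AC144621.3, and counting did not use strand, so the Phf1 values are uncertain.

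**Figure D1:**
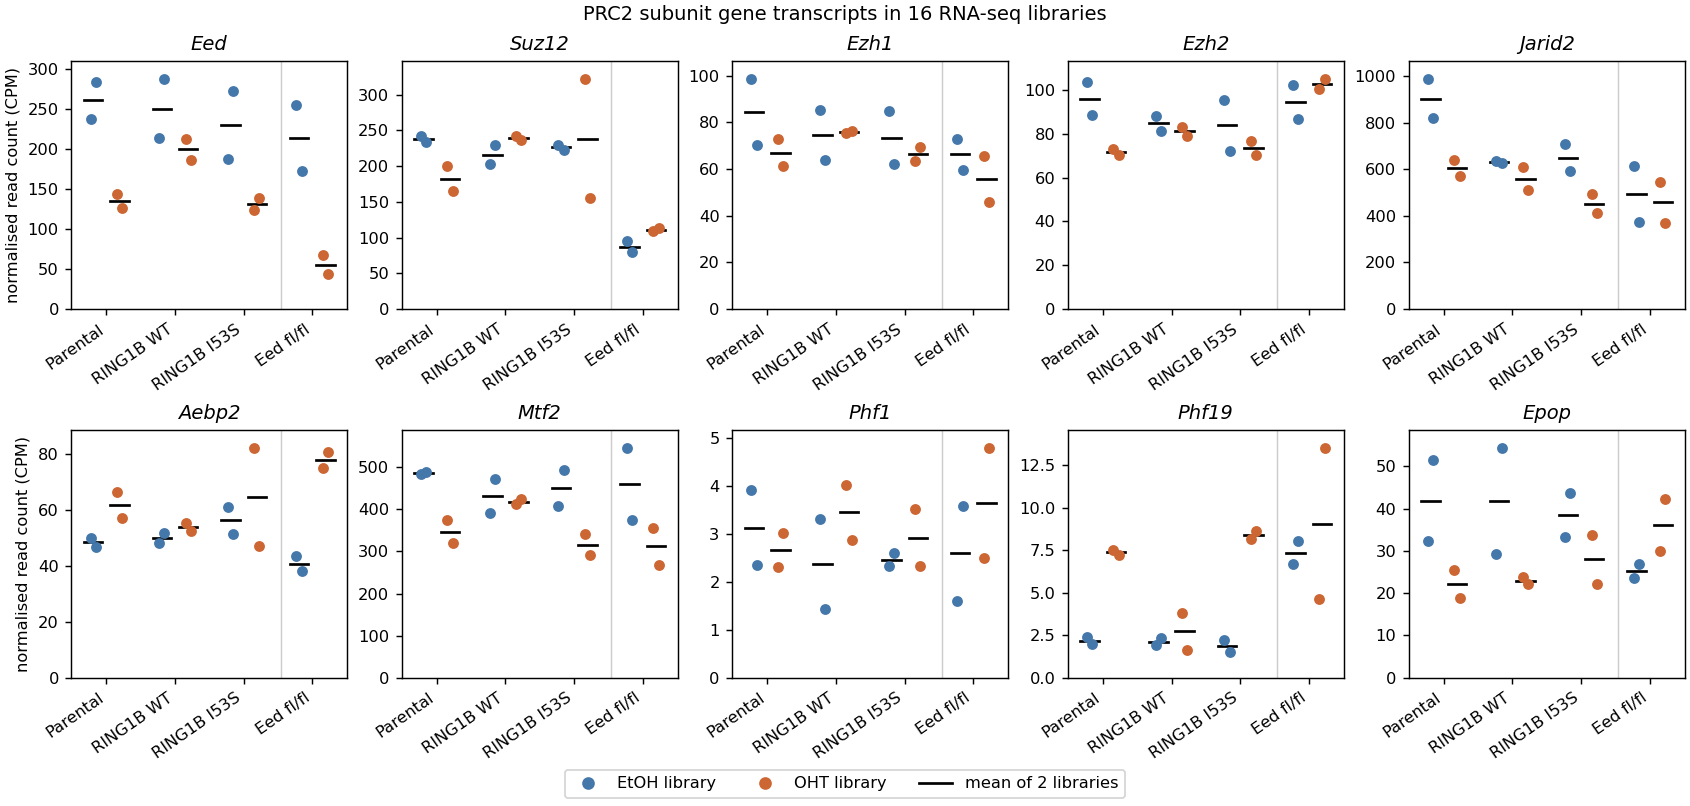
Transcript level of each PRC2 subunit gene (CPM, linear axis from 0) by cell line, with 1 point per library and a bar at the mean of 2 libraries. Phf19 in Parental and RING1B I53S ESCs lies between 7.21 and 8.61 CPM with OHT and at or under 2.36 CPM with EtOH, while the mean of Eed is lower with OHT than with EtOH in all 4 lines.

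The comparison of OHT with EtOH in Parental ESCs asked how the subunit transcripts differed after loss of RING1B in cells without RING1A. Phf19 rose, and Eed, Jarid2, Mtf2 and Epop fell, while Suz12, Ezh1, Ezh2, Aebp2 and Phf1 did not pass the test. These 5 of 10 genes passed a false discovery rate (FDR) of 0.05 in edgeR's quasi-likelihood test, against 34.3% of the 18154 genes tested. By direction, 1 of 10 was higher, against 21.9% of all genes, and 4 of 10 were lower, against 12.4%. The median log2 fold change was -0.405 over the 10 genes and 0.027 over all genes tested.

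Phf19, encoding a Polycomb-like PRC2.1 subunit, was at 2.36 and 1.98 CPM with EtOH and at 7.52 and 7.21 CPM with OHT. It thus had both OHT libraries above both EtOH libraries, with a mean ± SD of 2.17 ± 0.272 against 7.36 ± 0.213 CPM (n = 2). The log2 fold change was 1.75 ± 0.405 (SE, adjusted p = 0.00233), a 3.35-fold rise. Phf19 was the sole subunit gene past the study's stricter threshold, which adds a log2 change of at least 1.5 in either direction, which 17.0% of all genes tested passed. The call held in all 11 alternative fits.

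The gene lies on mouse chromosome 2 (GRCm38, chr2:34893757-34914026, minus strand). The bases just before its 5′ end are shown because most antibodies had a peak over them, with CG dinucleotides in capitals (chr2:34914027-34914226, GRCm38, minus strand, 25 CG in 200 bases):
Phf19: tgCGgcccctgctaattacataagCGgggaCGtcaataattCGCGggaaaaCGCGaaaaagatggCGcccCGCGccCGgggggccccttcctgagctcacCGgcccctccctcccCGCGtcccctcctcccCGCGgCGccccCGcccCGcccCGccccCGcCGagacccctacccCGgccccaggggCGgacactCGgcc
Its RefSeq promoter window of 300 bases (GRCm38.p6, 250 before and 50 after the start) held 38 CG, at the 95.6 percentile of 32851 promoter windows, whose median was 7. The letters TTCCCGC, a core of E2F sites, were found on either strand in the windows of Phf19 and Suz12 among the 9 genes with a window, and in 4.6% of all windows. CACGTG, the E box, was in none of the 13 windows of these 9 genes, and in 7.15% of all windows.

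Eed encodes the core subunit that reads H3K27me3 (chr7:89954654-89980983, minus strand). Its transcript was at 237.5 and 284.1 CPM with EtOH and at 144.0 and 125.9 CPM with OHT. Both OHT libraries were below both EtOH libraries, and the level fell from 260.8 ± 32.95 to 135.0 ± 12.8 CPM (mean ± SD, n = 2). The log2 fold change was -0.95 ± 0.205 (SE, adjusted p = 0.00128), and the call held in all 11 alternative fits. In these bulk samples, fewer cells expressing a gene and less RNA per cell cannot be told apart.

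The other core genes did not pass the test. Suz12 was at 242.4 and 233.4 CPM with EtOH and at 199.7 and 164.9 CPM with OHT (log2 fold change -0.38 ± 0.234, adjusted p = 0.22). Ezh2 was at 103.8 and 88.4 CPM with EtOH and at 72.9 and 70.1 CPM with OHT (log2 fold change -0.43 ± 0.187, adjusted p = 0.0835). Suz12 and Ezh2 had OHT libraries below the EtOH libraries without overlap, and Ezh1 overlapped, with 98.4 and 70.1 CPM against 72.8 and 61.2 CPM (adjusted p = 0.249).

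Among the PRC2.2 genes, Jarid2 fell and Aebp2 did not pass the test. Jarid2, whose product binds H2AK119ub1, was at 986.5 and 821.3 CPM with EtOH and at 639.4 and 570.7 CPM with OHT (log2 fold change -0.58 ± 0.174, adjusted p = 0.014). Aebp2, which encodes a zinc finger protein, was at 49.9 and 46.9 CPM with EtOH and at 66.3 and 57.1 CPM with OHT (log2 fold change 0.35 ± 0.224, adjusted p = 0.242). The OHT and EtOH libraries of both genes were separate, those of Jarid2 lower and those of Aebp2 higher with OHT.

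Of the other PRC2.1 genes, Mtf2 was at 483.3 and 488.9 CPM with EtOH and at 375.1 and 319.5 CPM with OHT (log2 fold change -0.485 ± 0.173, adjusted p = 0.0353). Epop, whose product joins PRC2.1 to Elongin B and C, was at 32.3 and 51.4 CPM with EtOH and at 25.5 and 18.8 CPM with OHT (log2 fold change -0.91 ± 0.294, adjusted p = 0.0214). Both fell, with no overlap between treatments. Phf1 ranged from 2.31 to 3.91 CPM over the 4 libraries (adjusted p = 0.71). In all, 8 of 10 subunit genes had OHT and EtOH libraries that did not overlap, as did 70.8% of all genes tested.

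The calls of Jarid2, Mtf2 and Epop were less stable than those of Phf19 and Eed, holding in 7, 4 and 7 of the 11 alternative fits. All 3 were lost when libraries were scaled by their totals alone, which raised the median log2 fold change of all genes by 0.197, and at a minimum of 10 counts in every library. Jarid2 was lost without Parental EtOH replicate 1 or Parental OHT replicate 2, with adjusted p-values of up to 0.13 over all alternatives. Epop was lost without Parental EtOH replicate 2 or Parental OHT replicate 2, with values of up to 0.263. Mtf2 was lost when any of the 4 libraries was left out and without a filter on low counts, with values of up to 0.255. All 3 kept a negative log2 fold change, of which the smallest were -0.383 for Jarid2, -0.283 for Mtf2 and -0.554 for Epop.

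Markers of other cell types moved with the same comparison. The summed ESC markers (6 of 6 detected) were at 4113 and 5188 CPM with EtOH and at 2552 and 2696 CPM with OHT, and 5 of the 6 fell. Primitive endoderm markers summed to 2.36 and 2.47 CPM with EtOH and to 28.2 and 28.8 CPM with OHT, and 5 of 5 rose. Trophoblast markers summed to 49.8 and 42.7 CPM with EtOH and to 179 and 181.5 CPM with OHT, and 3 of the 4 tested rose. For the fibroblast list the sums were 14 and 11.9 CPM with EtOH and 48.4 and 45.7 CPM with OHT, 3 of the 3 tested rose, and the defining markers Col3a1 and Dcn were too low to be tested. The part of these cell types in the changes of the PRC2 genes was not tested.

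With catalytically inactive RING1B I53S in place of endogenous RING1B, Phf19 again rose and Eed, Jarid2 and Mtf2 fell. Thus 4 of 10 subunit genes passed FDR 0.05 against 26.7% of all genes, with 1 of 10 higher against 18.4% and 3 of 10 lower against 8.37%. Phf19 was at 2.24 and 1.54 CPM with EtOH and at 8.13 and 8.61 CPM with OHT, a log2 fold change of 2.13 ± 0.404 (SE, adjusted p = 0.000592). Eed was at 186.9 and 271.9 CPM with EtOH and at 124.2 and 139.0 CPM with OHT (log2 fold change -0.80 ± 0.204, adjusted p = 0.00618). Neither gene overlapped between treatments, and the Phf19 call held in all 11 alternative fits. The Eed call was lost without RING1B I53S EtOH replicate 2 (adjusted p = 0.121).

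Jarid2 was at 708.2 and 592.0 CPM with EtOH and at 493.1 and 413.1 CPM with OHT in this line (log2 fold change -0.52 ± 0.174, adjusted p = 0.0315). Mtf2 was at 408.3 and 492.8 CPM with EtOH and at 340.6 and 291.7 CPM with OHT (log2 fold change -0.51 ± 0.173, adjusted p = 0.0333). Each call held in 6 of 11 alternatives. Both were lost with scaling by library totals, at a minimum of 10 counts in every library, with only the compared groups in the fit and without I53S OHT replicate 2. Jarid2 was also lost without I53S EtOH replicate 1, and Mtf2 without I53S EtOH replicate 2, with adjusted p-values of up to 0.183 and 0.214.

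Epop did not pass in RING1B I53S ESCs, at 33.3 and 43.8 CPM with EtOH and 33.8 and 22.1 CPM with OHT (adjusted p = 0.259). The Suz12 values with OHT stood far apart, at 321.5 and 155.5 CPM, against 229.3 and 223.3 CPM with EtOH, so its log2 fold change of 0.08 (adjusted p = 0.852) became -0.54 without I53S OHT replicate 1 (adjusted p = 0.0397) and 0.51 without replicate 2 (adjusted p = 0.0382). Aebp2 showed the same spread, with 82.1 and 46.9 CPM in these OHT libraries. The summed ESC markers were at 3664 and 4675 CPM with EtOH and 2536 and 2614 CPM with OHT, and the primitive endoderm markers at 3.94 and 2.40 CPM and at 25.9 and 22.5 CPM (5 of 5 rose). The trophoblast markers summed to 64.4 and 60.0 CPM with EtOH and to 136.8 and 150.3 CPM with OHT (3 of 4 tested rose), and the fibroblast markers to 15.5 and 14.8 CPM and to 39.7 and 49.9 CPM (3 of 3 tested rose). The part of these markers' cell types in the changes was not tested.

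With wild-type RING1B in place of the endogenous protein, none of the 10 subunit genes passed FDR 0.05 in edgeR or DESeq2, against 2.21% of all genes in edgeR. At an unadjusted p under 0.05 the count was 1 (15.8% of all genes), Epop, with 29.3 and 54.3 CPM with EtOH and 23.8 and 22.2 CPM with OHT (log2 fold change -0.86 ± 0.296, adjusted p = 0.135). Phf19 was at 1.93 and 2.30 CPM with EtOH and at 3.82 and 1.62 CPM with OHT (adjusted p = 0.729), so its OHT libraries lay on either side of the EtOH libraries. Eed was at 214.1 and 286.7 CPM with EtOH and at 212.8 and 185.7 CPM with OHT (adjusted p = 0.452). The summed ESC markers were at 3957 and 4650 CPM with EtOH and 3863 and 4003 CPM with OHT, and 6 of 6 did not pass. Primitive endoderm markers summed to 3.21 and 1.98 CPM with EtOH and to 5.33 and 8.59 CPM with OHT (0 of 5 called), trophoblast markers to 43.9 and 30.3 CPM and to 59.6 and 77.5 CPM (2 of 4 tested rose), and fibroblast markers to 12 and 10.1 CPM and to 20.6 and 20.7 CPM (1 of 3 tested rose).

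In direct comparisons of the OHT groups, Phf19 was the sole subunit gene called, and only between RING1B WT and each of the other RING1A-/- lines. With OHT, Phf19 was lower in RING1B WT than in Parental ESCs (log2 fold change -1.41 ± 0.398, adjusted p = 0.0182) and higher in RING1B I53S than in RING1B WT ESCs (1.59 ± 0.398, adjusted p = 0.0117). It was 1 of 10 subunit genes called in each comparison, against 18.1% and 13.3% of all genes. Both calls were lost without RING1B WT OHT replicate 2, the library with 1.62 CPM, with adjusted p-values of up to 0.205 and 0.153, and the former also without either Parental OHT library. Eed came next in both comparisons without passing the test, at log2 fold changes of 0.56 (adjusted p = 0.061) and -0.60 (adjusted p = 0.0572).

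Between RING1B I53S and Parental ESCs, both with OHT, none of the 10 genes was called in edgeR or DESeq2, against 0.303% of all genes, and 1, Jarid2, had an unadjusted p under 0.05, as did 4.96% of all genes (log2 fold change -0.42, adjusted p = 0.902). Phf19 differed by 0.18 ± 0.365 on the log2 scale between these groups (adjusted p = 0.998). With EtOH, RING1B I53S and RING1B WT each differed from Parental at none of the 10 genes in either tool, against 0.303% and 0.0606% of all genes, and Jarid2 had an unadjusted p under 0.05 in both, as did 5.22% and 4.54% of all genes (log2 fold change -0.48 with an adjusted p of 0.629, and -0.52 with 0.724).

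The difference between the OHT effects was tested as an interaction. None of the 10 genes passed in either edgeR or DESeq2 for RING1B WT against Parental, where 2.07% of all genes did, and the 2 genes with an unadjusted p under 0.05 (14.2% of all genes) were Phf19 (-1.36 ± 0.599, adjusted p = 0.297) and Eed (0.62 ± 0.287, adjusted p = 0.331). For RING1B I53S against Parental none had an unadjusted p under 0.05, against 2.69% of all genes, or was called by either tool, and 0% of all genes passed. The OHT effects of Phf19 and Eed were therefore not shown to differ between lines by this test.

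**Figure D2:**
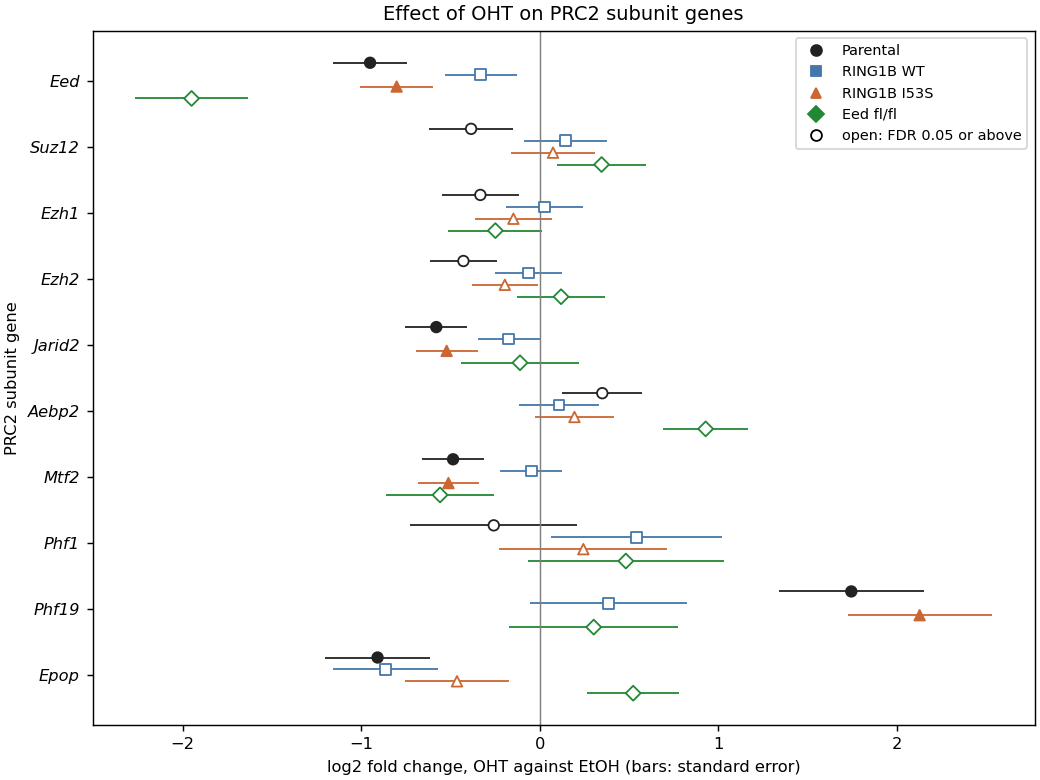
Log2 fold change of OHT against EtOH for each PRC2 subunit gene by cell line, with bars for the standard error and filled symbols for FDR under 0.05. Phf19 lies at 1.75 in Parental, 2.13 in RING1B I53S and 0.39 in RING1B WT ESCs, and Eed is negative in all 4 lines, with its lowest value, -1.95, in Eed fl/fl.

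In the Eed fl/fl line, the targeted gene was checked in each library. Eed was at 255.3 and 172.9 CPM with EtOH and at 67.1 and 43.7 CPM with OHT, so the OHT libraries were lower and did not overlap. The log2 fold change was -1.95 ± 0.315 (SE, unadjusted p = 6.05e-05), with an adjusted p of 0.0766 in edgeR and 4.65e-05 in DESeq2. Counts took in all exons, including those outside the deleted part. Leaving out any of the 4 libraries gave adjusted p-values of 9.31e-05 to 0.023.

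None of the 10 subunit genes passed FDR 0.05 in the edgeR fit of this line, and 1 did in DESeq2. Of the 25170 genes tested, 2 were called (0.00795%), so the test called very few genes of any kind. At an unadjusted p under 0.05 there were 2 subunit genes, Eed and Aebp2, against 5.45% of all genes. Aebp2 was at 43.6 and 38.0 CPM with EtOH and at 74.9 and 80.5 CPM with OHT, which did not overlap (log2 fold change 0.93 ± 0.239, adjusted p = 0.481). Phf19 was at 6.66 and 8.01 CPM with EtOH and at 4.61 and 13.5 CPM with OHT, so its OHT libraries lay on either side of the EtOH libraries (adjusted p = 0.919). Mtf2 was at 545.8 and 375.0 CPM with EtOH and at 356.9 and 268.4 CPM with OHT (adjusted p = 0.833). Primitive endoderm markers summed to 12.34 and 14.23 CPM with EtOH and to 17.05 and 20.01 CPM with OHT. For trophoblast markers the sums were 118.7 and 89.8 CPM, and 183.7 and 132.9 CPM. Fibroblast markers, 6 of 6 detected in every library, summed to 23.1 and 35.5 CPM, and to 36.4 and 50.2 CPM. None of the tested markers in these lists was called.

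A further 9 genes of the pathway were listed: the histone-binding core partners Rbbp4 and Rbbp7, the accessory genes Lcor and Lcorl, the Elongin genes Elob and Eloc, the H3K27 demethylase genes Kdm6a and Kdm6b, and AU022751, the mouse counterpart of the PRC2 inhibitor EZHIP. In Parental ESCs with OHT, 1 of 9 rose (21.9% of all genes), 1 fell (12.4%) and 7 did not pass. In RING1B I53S none rose (18.4%), 1 fell (8.37%) and 8 did not pass, and in RING1B WT none of 9 passed (2.21%). Kdm6a was at 57.7 and 58.1 CPM with EtOH and at 22.6 and 16.9 CPM with OHT in Parental ESCs (log2 fold change -1.55, adjusted p = 8.77e-06). It was at 54.5 and 60.4 CPM and at 33.1 and 29.3 CPM in RING1B I53S ESCs (log2 fold change -0.88, adjusted p = 0.00222). AU022751 was at 1.30 and 0.742 CPM with EtOH and at 3.59 and 5.56 CPM with OHT in Parental ESCs (log2 fold change 2.11, adjusted p = 0.00717). Neither gene overlapped between treatments in these groups.

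The genes with the most similar profile were found by Pearson's r of log2 CPM over the 12 libraries without RING1A, as a description. Phf19 was closest to Otop2 (0.983), Pantr1 (0.973) and Mgll (0.969). Eed was closest to Mat2b (0.993), Pcmtd2 (0.990) and Xrcc5 (0.987). The 12 points share treatments and depth differences, and 18153 other genes were compared.

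ChIP-seq peak lists gave a second view of the same genes. A gene was counted as having a peak when a peak overlapped the stretch from 2.5 kb before its start to 2.5 kb after its end, and a peak's score is the −log10 p of MACS2, of at least 10. There were 70 ChIP lists for 12 antibodies, with 14 to 24485 peaks, and 10 of the lists had no peak at any of the 10 genes. The 4 input lists of the MTF2 KO lines, with 9 to 19 peaks, had no peak at these genes. Groups had 1 library for each antibody, except that MTF2 and JARID2 had 2 at 72 h in the clones with RING1B WT or I53S, so the peak values have no replicate check and no test. Of these 2, replicate 2 had the form of title of the Parental OHT and 48 h libraries of the same antibodies. Replicate 1 had another form, and the titles do not say whether the forms mark separate experiments. Scores grow with the depth and the enrichment of a library and were not scaled between libraries. The study added Drosophila chromatin to its histone ChIPs as a spike-in, and neither peak scores nor peak counts here were scaled by it. A higher score or count of a histone mark therefore does not show more of that mark.

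The 10 genes differed widely in how often a peak was found. Phf19 had a peak in 45 of 70 lists and for 11 of 12 antibodies, and Jarid2 in 36 lists and for 9 antibodies. Epop had a peak in 30 lists and Aebp2 in 25. Fewer peaks were found at Suz12 (9 lists), Ezh1 and Ezh2 (6 each), Eed and Phf1 (4 each) and Mtf2 (2). In Parental EtOH, 10 antibodies had a peak at Phf19, 10 at Aebp2, 8 at Jarid2, 7 at Epop and none at Mtf2.

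**Figure D3:**
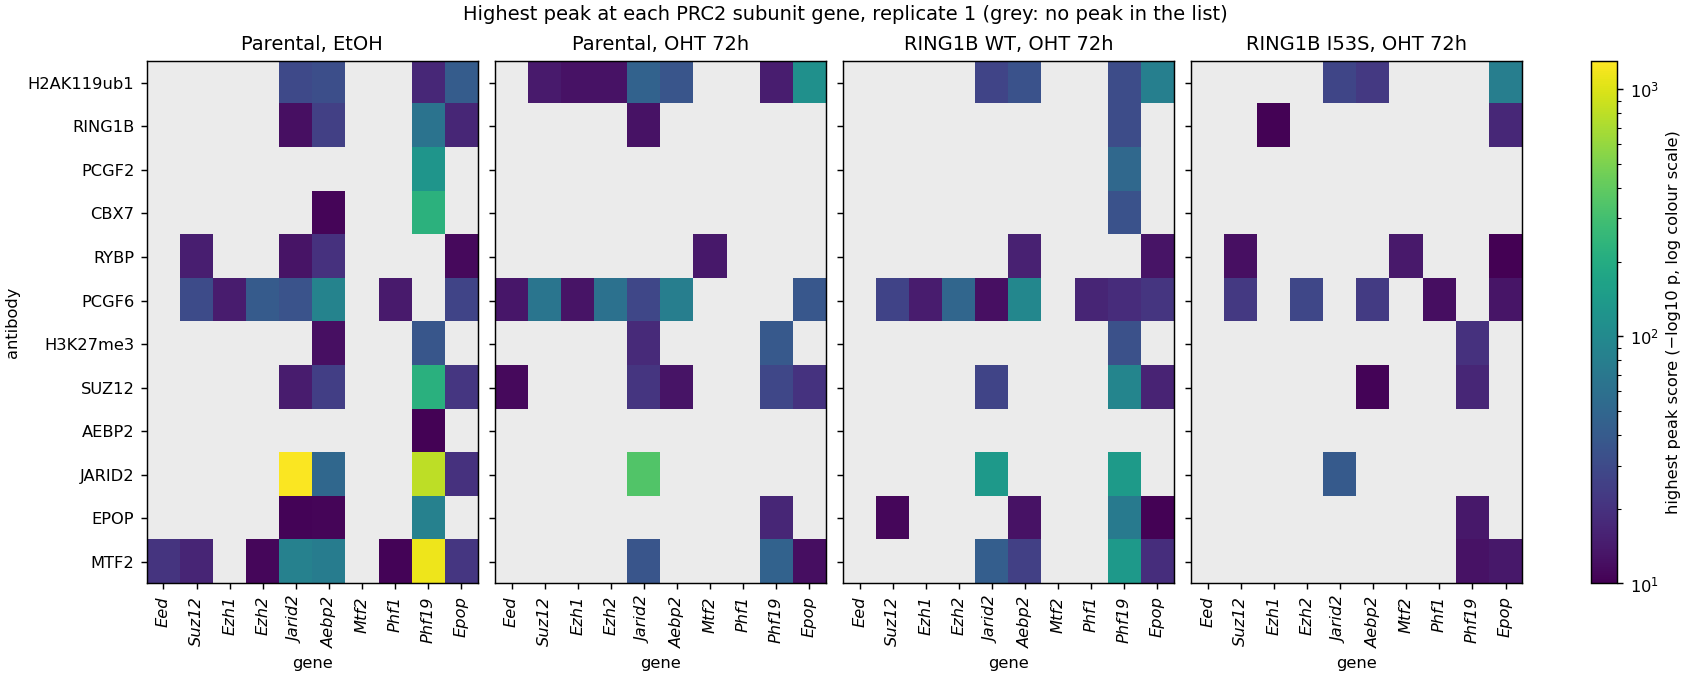
Highest peak score (−log10 p, log colour scale) of each antibody at each PRC2 subunit gene in Parental EtOH and in the 3 lines with OHT for 72 h, replicate 1, with grey for no peak in the list. Phf19 and Jarid2 hold the highest scores in Parental EtOH, 1138.4 for MTF2 and 1272.7 for JARID2, and PCGF6 has a peak at Suz12, Ezh2, Aebp2 and Epop in all 4 groups. For MTF2 and JARID2, the RING1B WT and RING1B I53S libraries shown have another form of title than the Parental OHT library.

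The counts were set beside those over all 21910 protein-coding genes. In Parental EtOH, SUZ12 had a peak at 4 of the 10 genes, against 31.3% of all protein-coding genes, JARID2 at 4 against 34.8%, MTF2 at 8 against 54.7%, EPOP at 3 against 26.2% and AEBP2 at 1 against 4.61%. H3K27me3 had a peak at 2 against 30.6%. Of the PRC1 proteins, RING1B had a peak at 4 against 19.5%, CBX7 at 2 against 18.9%, PCGF2 at 1 against 18.7% and RYBP at 4 against 13%. H2AK119ub1 had a peak at 4 of the 10 against 26.3%, and PCGF6, a subunit of variant PRC1.6, at 7 against 30.3%.

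After OHT for 72 h in Parental ESCs, counts for RING1B went from 4 to 1 (2.36% of all protein-coding genes), for CBX7 from 2 to 0 (0.278%), for PCGF2 from 1 to 0 (0.333%) and for RYBP from 4 to 1 (0.269%). The single RING1B gene with OHT was Jarid2, with scores of 10.2 to 12.7 at sites that did not overlap its RING1B peaks with EtOH. Within 2.5 kb of any annotated start site, the RING1B counts were 3 with EtOH and 0 with OHT (1.36%). The single RYBP gene with OHT was Mtf2, which had no RYBP peak with EtOH, so Suz12, Jarid2, Aebp2 and Epop all had no RYBP peak with OHT. JARID2 went from 4 to 1 (5.62%), MTF2 from 8 to 3 (27.6%), EPOP from 3 to 1 (11.6%) and AEBP2 from 1 to 0 (0.0685%). The PCGF6 count was 7 with either treatment (21.1% with OHT), with Phf1 listed with EtOH alone and Eed with OHT alone. The H3K27me3 count was 2 with either treatment (25.6% with OHT), Phf19 with Aebp2 with EtOH and Phf19 with Jarid2 with OHT. SUZ12 was at 5 (23.0%). The H2AK119ub1 count was 4 with EtOH and 7 with OHT (22.4%), in lists of 12648 and 5450 peaks. The genes listed with OHT alone were Suz12, Ezh1 and Ezh2, with scores of 14.1, 12.8 and 12.7, and at a score of at least 20 both treatments gave the same 3 genes, Jarid2, Aebp2 and Epop. The RYBP library was taken as 72 h of OHT from the title PARE72, a form between PAR72 (OHT) and PARETA (EtOH) of other titles. A separate RYBP library had the title PARETA. The treatment behind the lower RYBP count thus rests on this reading.

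In RING1B I53S ESCs with OHT for 72 h, PCGF6 had a peak at 5 of the 10 genes (11% of all protein-coding genes), H2AK119ub1 at 3 (12.8%), RYBP at 3 (3.68%), RING1B at 2 (4.21%), SUZ12 at 2 (14.4%), and H3K27me3 and EPOP at 1 each (24.1% and 12.6%). AEBP2, CBX7 and PCGF2 had none (0.132%, 0.169% and 2.59%). JARID2 had a peak at 1 gene in both libraries (4.35% and 1.8%), and MTF2 at 2 and 4 (12.6% and 28.1%).

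In RING1B WT ESCs at the same time, PCGF6 had a peak at 8 genes (28.5%), H2AK119ub1 and EPOP at 4 each (31.4% and 26.4%), SUZ12 at 3 (26.1%), RYBP at 2 (5.37%), and H3K27me3, RING1B, PCGF2 and CBX7 at 1 each (30.5%, 15.0%, 13.9% and 9.95%). AEBP2 had none (4.92%). JARID2 had a peak at 2 genes in both libraries (20.3% and 20.0%), and MTF2 at 4 and 3 (30.4% and 27.6%). In the MTF2 lists, Phf19 was in all 4 libraries, and Aebp2 in both of RING1B WT and neither of RING1B I53S.

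Phf19 held both PRC1 and PRC2 peaks over its start. Most were absent or had a lower score in Parental and RING1B I53S ESCs with OHT than in Parental EtOH. Most scores in RING1B WT ESCs with OHT were also lower than in Parental EtOH. The RING1B WT and RING1B I53S clones had EtOH lists for MTF2 and JARID2 alone, so the other antibodies were compared with another line. The MTF2 score was 1138.4 in Parental EtOH, 79.0 with OHT for 48 h and 46.0 for 72 h. In RING1B WT ESCs it was 385.2, 167.5, and 138.0 and 131.2 in the 2 libraries at 72 h. In RING1B I53S ESCs it was 283.4, 50.2, and 12.8 and 39.6. At 72 h both RING1B WT libraries thus scored above both RING1B I53S libraries, where the smallest two-sided exact permutation p for 2 against 2 is 0.333.

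The JARID2 score at Phf19 was 798.9 in Parental EtOH and 14.2 with OHT for 48 h, and no peak was listed at 72 h. In RING1B WT ESCs it was 246.8 with EtOH, 108.5 at 48 h, and 142.0 and 115.2 at 72 h. In RING1B I53S ESCs it was 200.5 with EtOH, and none of the 3 OHT libraries listed a peak. JARID2 peaks at this gene were therefore listed at 72 h in RING1B WT alone among the 3 lines.

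For SUZ12, the score at Phf19 was 220.6 in Parental EtOH and, with OHT for 72 h, 28.4 in Parental, 91.4 in RING1B WT and 16.9 in RING1B I53S ESCs. H3K27me3 differed less, at 37.1 in Parental EtOH and, with OHT, 39.2 in Parental, 33.6 in RING1B WT and 19.9 in RING1B I53S. EPOP was at 85.3, 17.0, 73.8 and 13.7 in the same order. The PRC2.1 subunit EPOP and SUZ12 shared this order of the 4 libraries, and H3K27me3 did not.

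The PRC1 proteins CBX7, PCGF2 and RING1B had peaks at Phf19 in Parental EtOH and in RING1B WT with OHT. CBX7, which binds H3K27me3, scored 229.8 and 33.8, PCGF2 scored 127.5 and 52.0, and RING1B scored 64.2 and 31.0 in these libraries, and none of the 3 had a peak in Parental or RING1B I53S ESCs with OHT. H2AK119ub1 scored 17.2 in Parental EtOH, 14.7 in Parental OHT and 31.0 in RING1B WT OHT, where the medians of the lists were 14.4, 15.9 and 15.1, and had no peak in RING1B I53S. Beside these scores, the Phf19 transcript was at 7.21 to 8.61 CPM in the OHT groups of Parental and RING1B I53S and at 1.62 to 3.82 CPM in that of RING1B WT. Of all peaks listed at Phf19, 39 also took in the start of the antisense gene Gm13448, and to which of the 2 starts they belong cannot be told apart.

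**Figure D4:**
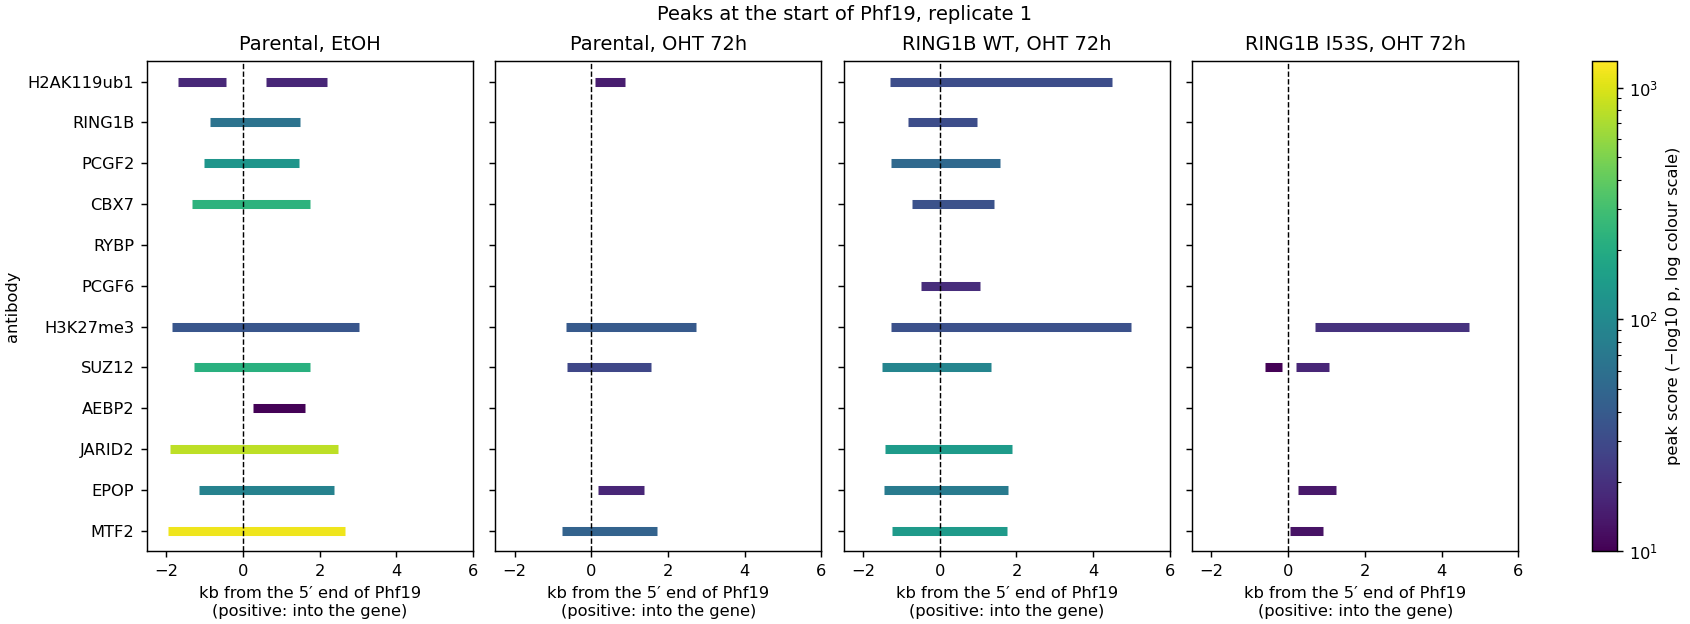
Extent of the peaks near the start of Phf19 by antibody (kb from the 5′ end, positive into the gene), with colour for the score (−log10 p, log scale), in Parental EtOH and the 3 lines with OHT for 72 h, replicate 1. Peaks of CBX7, PCGF2, RING1B and JARID2 cover the start in Parental EtOH and in RING1B WT with OHT, and are missing from Parental and RING1B I53S with OHT, while H3K27me3 and SUZ12 peaks are listed in all 4 panels. For MTF2 and JARID2, the RING1B WT and RING1B I53S libraries shown have another form of title than the Parental OHT library. The MTF2 peak shown for RING1B I53S (score 12.8) stops short of the start, while that of replicate 2 (39.6) covers it.

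Loss of MTF2 was followed at Phf19 with 2 antibodies. In the MTF2 KO lines, H3K27me3 scored 12.5 in Parental EtOH and 12.9 in RING1B WT OHT, and SUZ12 scored 19.9 and 17.7, against 37.1, 33.6, 220.6 and 91.4 in the lines with MTF2. No peak was listed in the MTF2 KO derivatives of Parental and RING1B I53S with OHT. Those lists held 332 and 2730 H3K27me3 peaks, and 1801 and 706 SUZ12 peaks, in Parental and RING1B I53S in that order. The lists of RING1B WT MTF2 KO with OHT held 3382 H3K27me3 and 4634 SUZ12 peaks. Depth could not be compared.

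Jarid2 (chr13:44729474-44921643, plus strand) differed from Phf19 in that its strongest peaks lay far from the start of the gene, in an intron. A peak of the JARID2 antibody was listed in all 11 JARID2 libraries at 1 site, with starts from 44869571 to 44869576, and the peaks shared the bases chr13:44869576-44869954, 140102 bases from the gene's 5′ end. The central bases of the site are shown because the gene's own product had a peak there in every library of its antibody, with CG in capitals (chr13:44869615-44869914, GRCm38, plus strand, 23 CG in 300 bases, 55.3% GC):
Jarid2 intron: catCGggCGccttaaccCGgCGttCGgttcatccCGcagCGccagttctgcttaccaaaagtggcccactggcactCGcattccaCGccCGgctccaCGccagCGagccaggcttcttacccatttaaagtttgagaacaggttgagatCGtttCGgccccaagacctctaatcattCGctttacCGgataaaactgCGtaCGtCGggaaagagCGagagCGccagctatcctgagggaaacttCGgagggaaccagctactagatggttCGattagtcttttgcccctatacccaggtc

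The JARID2 score at this intron was 1272.7 in Parental EtOH, 377.9 with OHT for 48 h and 348.3 for 72 h. In RING1B WT ESCs it was 1101.6 with EtOH, 489.5 at 48 h, and 135.7 and 586.0 at 72 h. In RING1B I53S ESCs it was 635.8, 377.4, and 39.9 and 270.7. The 2 libraries at 72 h differed several-fold within each line and overlapped between lines. Unlike the peak at Phf19, the intronic peak was therefore still listed in all 7 libraries of Parental and RING1B I53S. Its edges were nearly the same in libraries with very different numbers of peaks, and whether it reflects binding of JARID2 was not tested.

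Its rank within the list differed widely between libraries. In Parental ESCs it ranked 523 of 14778 peaks with EtOH (3.54% of peaks at or above it), 9 of 3058 with OHT for 48 h (0.294%) and 8 of 1404 for 72 h (0.57%). In RING1B I53S ESCs it ranked 11 of 1137 at 48 h, and 115 of 1080 and 9 of 446 at 72 h, and in RING1B WT ESCs 1427 of 5728 and 92 of 5950 at 72 h. MTF2 also had a peak there, with scores of 84.4, 31.3 and 35.8 in Parental EtOH, 48 h and 72 h, and SUZ12 scored 14.4 in Parental EtOH, 21.2 in Parental OHT and 26.9 in RING1B WT OHT, with no peak in RING1B I53S OHT. The locus merged from overlapping peaks, chr13:44868013-44870672, held peaks in 26 lists of 5 antibodies. Among them was an H3K27me3 peak that did not overlap the JARID2 peaks.

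The start of Jarid2 carried a separate set of peaks. H2AK119ub1 scored 29.5 in Parental EtOH and, with OHT, 46.1 in Parental, 27.2 in RING1B WT and 27.8 in RING1B I53S ESCs. PCGF6 scored 34.7, 28.3 and 12.1 in the former 3 groups, with none listed in RING1B I53S. The start and the intron of this gene thus differed in part in which antibodies had peaks there. EPOP, PCGF6 and RYBP had peaks at the start and not at the intron, and JARID2 and MTF2 the reverse. The H3K27me3 peak of Jarid2, in Parental OHT (score 17.9), lay in the intron at chr13:44868013-44869078. It ended before the JARID2 peaks began. H2AK119ub1 and SUZ12 had peaks at both. In Parental OHT, H2AK119ub1 scored 13.8 at the intron, and SUZ12 scored 16.3 at the start and 21.2 at the intron.

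**Figure D5:**
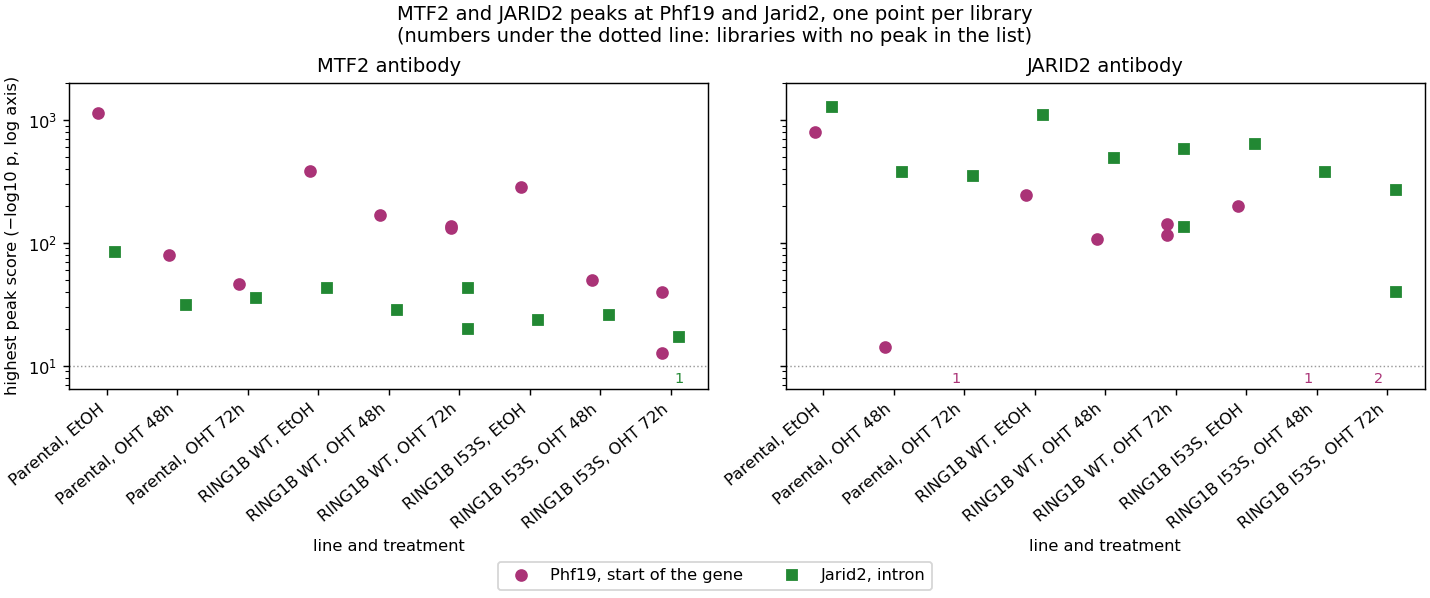
Highest score (−log10 p, log axis) of MTF2 and JARID2 peaks at the start of Phf19 (circles) and at the Jarid2 intron (squares) in each of the 11 libraries per antibody, with the number of libraries without a peak written under the dotted line at a score of 10. The JARID2 score at the Jarid2 intron is at or above 39.9 in every library, while at Phf19 no JARID2 peak is listed in Parental OHT for 72 h or in any OHT library of RING1B I53S.

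Epop (chr11:97627389-97629702, minus strand, 1 exon) had its highest scores for H2AK119ub1. These were 41.1 in Parental EtOH (rank 481 of 12648 peaks) and, with OHT, 115.0 in Parental (rank 19 of 5450), 82.5 in RING1B WT (rank 156 of 15830) and 80.2 in RING1B I53S (rank 36 of 3120). RING1B scored 17.0 in Parental EtOH and 17.2 in RING1B I53S OHT, with no peak in the other 2 groups. An H2AK119ub1 peak was thus listed in Parental OHT, without RING1A and after deletion of RING1B, where no RING1B peak was listed at Epop, and the source of that signal was not tested. By western blot, the study reported global loss of H2AK119ub1 in Parental and RING1B I53S ESCs with OHT. From ChIP-seq scaled by the spike-in, it also reported that RING1B I53S ESCs completely lost the mark at every PRC1 target locus. ChIP-qPCR at selected loci was given as further evidence. The scores and ranks at Epop were not scaled by the study's spike-in and do not show a gain or a retention of the mark. PCGF6 had 2 peaks at Epop in each list. Over the gene's start it scored 19.0 in Parental EtOH and, with OHT, 27.7 in Parental, 21.2 in RING1B WT and 12.9 in RING1B I53S. The other, upstream of the gene, scored 27, 37.6, 17.7 and 13.1 in the same order. No H3K27me3, CBX7 or PCGF2 peak was listed at Epop in any group.

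Aebp2 (chr6:140622663-140678472, plus strand) also had PCGF6 and H2AK119ub1 peaks at its start in all 4 groups. PCGF6 scored 88.4 in Parental EtOH and, with OHT, 80.2 in Parental, 95.0 in RING1B WT and 23.4 in RING1B I53S, and H2AK119ub1 scored 32.4, 36.0, 34.4 and 22.5. MTF2 scored 77.7 and JARID2 50.7 in Parental EtOH, and neither had a peak in Parental or RING1B I53S with OHT at 48 or 72 h. In RING1B WT, JARID2 scored 17.7 with EtOH and had no peak in the 3 OHT libraries, and MTF2 scored 29.4 with EtOH, had no peak at 48 h, and scored 25.1 and 10.6 at 72 h. In RING1B I53S with EtOH, MTF2 scored 11.9 and JARID2 had no peak. SUZ12 scored 24.5 in Parental EtOH and, with OHT, 12.9 in Parental and 10.4 in RING1B I53S, with no peak in RING1B WT. RING1B scored 25.1 in Parental EtOH and had no peak in the 3 OHT groups.

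PCGF6 was the antibody most often listed at Suz12, Ezh1 and Ezh2, and MTF2 at Eed. For PCGF6, Suz12 (chr11:79993106-80034123, plus strand) scored 30.4 in Parental EtOH and, with OHT, 66.2 in Parental, 26.4 in RING1B WT and 22.6 in RING1B I53S. Ezh2 (chr6:47530139-47595341, minus strand) scored 40.6, 61.8, 50.1 and 28.0 in the same order. Ezh1 (chr11:101191115-101226463, minus strand) scored 14.4, 12.9 and 14.5 with no peak in RING1B I53S, and Eed had a PCGF6 peak of 13.4 in Parental OHT alone. H3K27me3, CBX7, PCGF2 and JARID2 had no peak at Eed, Suz12, Ezh1 or Ezh2 in any list. The bases before the Suz12 start are shown because its promoter window had the most CG of the subunit genes, 41 in 300 bases, and no H3K27me3 peak (chr11:79992856-79993105, GRCm38, plus strand, 37 CG in 250 bases, CG in capitals):
Suz12: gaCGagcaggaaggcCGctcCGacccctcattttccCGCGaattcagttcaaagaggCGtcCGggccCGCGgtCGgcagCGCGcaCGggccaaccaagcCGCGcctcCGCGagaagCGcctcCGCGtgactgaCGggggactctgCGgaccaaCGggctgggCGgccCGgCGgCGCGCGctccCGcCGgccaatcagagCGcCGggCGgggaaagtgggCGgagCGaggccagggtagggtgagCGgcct

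Mtf2 (chr5:108065674-108109004, plus strand) and Phf1 (chr17:26933052-26937908, plus strand) had the fewest and weakest peaks of the PRC2.1 genes. Mtf2 had RYBP peaks alone, with scores of 13.6 in Parental OHT and 14 in RING1B I53S OHT. The 4 peaks assigned to Phf1 had scores of up to 16.5 and all lay downstream of it, over the start of Cuta. The Mtf2 promoter window held 30 CG, fewer than that of Phf19 and more than those of Jarid2, and its bases are shown for comparison with them (chr5:108065424-108065673, GRCm38, plus strand, 23 CG in 250 bases, CG in capitals):
Mtf2: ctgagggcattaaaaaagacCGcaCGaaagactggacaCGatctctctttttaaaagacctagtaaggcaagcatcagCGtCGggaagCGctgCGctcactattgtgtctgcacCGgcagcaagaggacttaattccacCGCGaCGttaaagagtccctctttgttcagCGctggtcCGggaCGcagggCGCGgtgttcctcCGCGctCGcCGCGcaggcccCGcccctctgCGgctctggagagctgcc
A high count of CG was thus found in windows with peaks of most antibodies, as at Phf19, and in windows with few, as at Suz12 and Mtf2. Conversely, the window at the 5′ end of Aebp2 held 4 CG, at the 38.0 percentile, and overlapped peaks in 16 libraries. Another Aebp2 window, 2246 bases from that end, held 21 CG and overlapped peaks in 11.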

How the data were processed

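RNA-seq (SMART-seq2, unstranded, poly-A) and ChIP-seq of mouse ESCs were analysed from deposited tables, with all 99 samples mapped to groups by their labels. The authors deposited raw read counts per gene, made with STAR 2.7 on mm10, removal of duplicates, and featureCounts over GENCODE exons without strand. The authors also deposited peak lists per library, called with MACS2 2.1.1 against an E14 input after alignment with Bowtie 1.2.2, with the score as −log10 p. Normalized tables and tables of the authors' fold changes and p-values were not used. Libraries have no molecular identifiers.

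The 12 libraries of the RING1A-/- lines (18154 genes, biological coefficient of variation 0.181) and the 4 of Eed fl/fl (25170 genes, 0.251) were fitted apart with edgeR 4.0.16 in R 4.3.3 (filterByExpr, TMM, quasi-likelihood test, Benjamini-Hochberg adjustment over all genes tested). CPM use TMM-scaled totals. On simulated data for the Parental comparison with few genes changed, 0% of genes changed by a log2 fold change of 0.5 were called, 42% at 1 and 74% at 2. In Eed fl/fl these shares were 0%, 10% and 66%, so moderate changes could be missed. In the real Parental comparison 34.3% of genes were called, which makes the adjusted cut-off less strict, so the simulated shares do not carry over to it. Replicate libraries differed by more than sampling noise (chi-square per gene of 5.88 to 22.9). Peaks were assigned at an overlap of 1 bp or more, with genes from GENCODE and promoter windows from RefSeq on GRCm38 (Python 3.11.15, pandas 2.3.3).

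All 10 genes of the rule, the targeted genes Rnf2 and Ring1, and further pathway genes past FDR 0.05 in Parental or RING1B I53S ESCs were named, with the 3 genes most like the largest rise and fall. Members and lists were chosen with earlier results of these data known. Alternatives were DESeq2 1.42.0, other scalings and filters, fits with only the groups compared, a replicate block, leaving out each library, and other peak rules.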

Additional observations from a re-analysis of the deposited data

Results flagged for a closer look

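Kdm6a, which encodes an H3K27 demethylase, differed between lines in its OHT effect. The interaction of RING1B WT against Parental was 1.18 on the log2 scale (SE 0.278, adjusted p = 0.0303 in edgeR's quasi-likelihood test). Its OHT effect was -1.55 in Parental and -0.37 in RING1B WT ESCs, where the libraries were at 62.1 and 70.6 CPM with EtOH and at 53.3 and 49.1 CPM with OHT. No subunit gene met this criterion.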

How the results depend on the processing

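The Parental count of 5 subunit genes became 2 with library totals alone or at least 10 counts in every library, and 2 to 4 without single libraries. In RING1B I53S 4 became 2 with library totals alone, at least 10 counts or only the groups compared, and 2 to 5 without single libraries. In RING1B WT 0 became 1 without the filter, and 0 to 1 without single libraries. Between OHT groups, 1 for RING1B WT against Parental became 3 with only the groups compared, and 1 for RING1B I53S against RING1B WT became 2 without the filter; without single libraries these 2 counts were 0 to 1 and 0 to 2, and that for RING1B I53S against Parental was 0 to 1 in place of 0. In Eed fl/fl 0 became 1 with DESeq2 or at least 10 counts, 2 with library totals and 1 without any single library. Of uncalled values, 91 of 1133 changed sign. Suz12 in RING1B I53S reversed to -0.541 without I53S OHT replicate 1, and was 0.506 without replicate 2, the lone OHT library then being assumed to vary like the other groups. The cause was not tested.

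Same-numbered libraries were not taken as pairs: their deviations correlated at -0.003 to 0.301 over 15 pairs of groups, and 9 were above 0.1, among them the 3 pairs within EtOH and the 3 within OHT. The single pair of Eed fl/fl groups correlated at 0.459, but the labels do not say what its numbers share. Whether its replicate numbers stand for the 2 clones that the study lists is not known. A replicate block gave 6 in Parental, 4 in RING1B I53S, 2 in RING1B WT against Parental and in RING1B I53S against RING1B WT (both OHT), 3 in Eed fl/fl (Eed at an adjusted p of 1.33e-19 in place of 0.0766) and 0 in the others. The blocked Eed fl/fl fit, on 4 libraries, had very few residual degrees of freedom. Library totals alone moved the share of higher calls from 63.9% to 78.2% in Parental, 68.7% to 81.1% in RING1B I53S, 73.0% to 83.5% in RING1B I53S against RING1B WT, and 100% to 74.7% in Eed fl/fl. In Parental EtOH, peaks with a score of at least 20 left AEBP2 at 0 genes, CBX7, EPOP, H3K27me3 and RYBP at 1, RING1B at 2 and MTF2 at 5, and genes without flanks left RYBP at 2. EPOP went from 3 to 2 without flanks or at an overlap of at least 500 bp, and the other counts in Parental EtOH moved by less than 1.5 times.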
